A study of Mus musculus with 48 samples.

Results

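Grm5, the Homer and Shank families and Dlg4 build the postsynaptic signalling complex of excitatory synapses. Grm5 encodes the metabotropic glutamate receptor mGluR5, a group I receptor that couples through Gq to phospholipase C. Homer proteins bind a proline-rich motif in the tail of that receptor, in Shank proteins and in inositol trisphosphate receptors. Long Homer forms join into multimers through a coiled coil, whereas the short form Homer1a lacks it, is induced by neuronal activity and by sleep loss, and uncouples the complex. Shank proteins are the scaffold beneath, and Dlg4 (PSD-95) holds glutamate receptors at the membrane and is tied to Shank through the Dlgap proteins.

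The members were taken as every probe on the array whose RefSeq accession belongs to Homer1, Homer2, Homer3, Shank1, Shank2, Shank3, Grm5 or Dlg4. This gave 16 probes of 8 genes, among 41174 probes for 18879 named genes. Grm5 had 4 probes, Homer1 and Homer2 had 3 each, Dlg4 had 2, and Homer3, Shank1, Shank2 and Shank3 had 1 each. All 16 were well above background on all 48 arrays.

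RNA came from frontal cortex and hypothalamus of 24 adult C57BL/6 mice, 1 array per tissue and mouse, collected at the end of 12 h of sleep deprivation in the light phase (the labels give the protocol as sleep displacement). The mice were Per3 5/5 or Per3 4/4 knock-in (KI) mice, homozygous for human PER3 exon 18 with 5 or 4 tandem repeats in place of the mouse exon, or were wild type (WT) for Per3, with 8 mice of each genotype. All 3 lines came from crosses of conditional mice with a ubiquitous Cre line, Cre was then bred out, and each line was kept as homozygous pairs, so that allele and line cannot be told apart. No mouse without sleep deprivation was measured, so a change with sleep loss itself is not part of any comparison here.

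Beside the members, the tissue labels fitted their markers: all 8 cortical neuron markers were lower in hypothalamus (median difference -4.15, log2) and 9 of 10 hypothalamic markers were higher (median 6.10). The arrays differed in brightness with genotype. The mean 75th percentile of intensity was 1266 in WT, 745 in Per3 4/4 and 908 in Per3 5/5 cortex, and 1505, 928 and 1048 in hypothalamus. They were scanned on 3 days, of which day 1 held no WT mouse and day 3 held 1 Per3 4/4 mouse. Every level below is a log2 intensity relative to the 75th percentile of its array, so that 0 is the 75th percentile. Levels of different probes are not comparable, because each probe has its own binding strength.

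The probes of Homer1 divided by accession. A_51_P387159 and A_51_P387160 carry NM_011982, and A_52_P151211 carries NM_152134. The files do not say which transcript form an accession stands for, and the study describes Homer1 probes near both ends of the transcripts without naming them. The probes are therefore called by accession here, and a short or long form is not assigned. The study describes more Homer1 probes than the 3 found here by accession, so a Homer1 probe that it read may be absent from this set.

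Promoter sequence was available from RefSeq (GRCm38.p6, 250 bases before to 50 after a transcript start) for 5 of the 8 genes, in 9 windows. They were searched on both strands for the core of the cyclic AMP response element (TGACG), the full element (TGACGTCA, which holds the core) and the E-box of clock proteins (CACGTG). The upstream promoter of Homer1 held 3 cores, and 1.03% of 32851 promoters of this length held at least 3. One Dlg4 promoter held 1, as 20.8% of promoters held at least 1. The other 7 windows held none, and none of the 9 held the full element (1.79% of promoters) or an E-box (7.15%). Stretches of 30 bases, with 2 of the 3 cores of Homer1 and the 1 of Dlg4, are shown because Homer1 is the activity-induced member of the set, with TGACG in capitals. The Homer1 stretch lies on the plus strand at chr13:93303696-93303725, 61 to 32 bases before the start, and the Dlg4 stretch on the plus strand at chr11:70023893-70023922, 89 to 60 bases before it.
Homer1: caagcTGACGtgagcggagggTGACGtatg
Dlg4: ttctctcccatcaTGACGctctcccgtact

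The first comparison was between the tissues. In each genotype 15 of the 16 probes were lower in hypothalamus than in frontal cortex (limma, Benjamini-Hochberg adjusted over 31237 probes), and Homer3 was the probe without a call. Over all probes 50.1% were called in either direction in Per3 5/5, 51.1% in Per3 4/4 and 51.9% in WT, and 24.4%, 24.1% and 23.8% were called lower. With the genotypes averaged 67.8% of all probes were called, and 32.4% of all probes were called lower. The median difference of the members was -1.24, -1.35 and -1.13 (log2, hypothalamus minus cortex), against -0.02, 0.02 and 0.03 over all probes tested. The 44 postsynaptic partners described below did much the same. Of these 36, 35 and 35 were called lower and 4, 4 and 5 higher, with medians of -1.08, -1.15 and -1.07. The lower level in hypothalamus is therefore not particular to the members. In a tissue sample fewer cells that express a gene and less RNA per cell cannot be told apart. Of 6 pan-neuronal markers 4 were called lower in each genotype, with medians from -1.0 to -0.88, and 1 was called higher in Per3 4/4.

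Homer1 had the steepest tissue difference of the set. In WT mice A_51_P387160 ran from -0.81 through a median of -0.41 to 0.04 in cortex, and from -4.32 through -3.64 to -3.47 in hypothalamus. The ranges lay far apart, and the probe was lower in hypothalamus in 8 of 8 mice of every genotype. Averaged over the genotypes the difference was -3.21 ± 0.08 (SE) for this probe, -3.24 ± 0.09 for A_51_P387159 and -2.79 ± 0.05 for A_52_P151211, which is 9.27-fold, 9.47-fold and 6.92-fold more in cortex. With background corrected by normexp (an offset of 50 added to each intensity, then quantile normalization) the same values were -2.53, -2.24 and -2.57. Such an offset by itself narrows log2 differences at dim probes, here and wherever normexp is given below. The size at the dim NM_011982 probes thus depends on the background correction and its offset, which were not separated.

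Homer2, a long-form adaptor, was lower in hypothalamus by 1.49 to 1.80 on the log2 scale at its 3 probes (differences of -1.51, -1.80 and -1.49 for A_51_P352303, A_52_P176573 and A_52_P343298). Homer3, a long form best known from cerebellar Purkinje cells, was at a median of -2.68 in both tissues of WT mice. Its difference was 0.06 ± 0.08 (limma adjusted p 0.482), and its ranges overlapped between the tissues in all genotypes. The Homer genes thus ranged from a 9-fold cortical excess at the NM_011982 probes of Homer1, smaller with normexp, to none detected at Homer3.

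The scaffolds were lower in hypothalamus by like amounts. The differences over the genotypes were -1.17 ± 0.16 for Shank1, -1.21 ± 0.06 for Shank2, -1.48 ± 0.10 for Shank3, and -1.15 ± 0.08 and -1.14 ± 0.08 for the Dlg4 probes. Shank1 spread widely in hypothalamus, from -5.00 to -2.46 in WT, and there it was lower than in cortex in 6 of 8 WT mice. With normexp and its offset the Shank1 and Shank2 differences shrank to -0.66 and -0.56.

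Grm5 differed least among the members that were called. Its probes were lower in hypothalamus by 0.73 (A_51_P465591 and A_51_P333441, both NM_001143834), 0.32 (A_52_P181394) and 0.44 (A_52_P675611, both NM_001081414), as differences of -0.73, -0.73, -0.32 and -0.44. At A_52_P181394 the WT mice ran from -0.91 through -0.71 to -0.35 in cortex and from -1.31 through -0.97 to -0.65 in hypothalamus, with overlapping ranges.

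**Figure D1:**
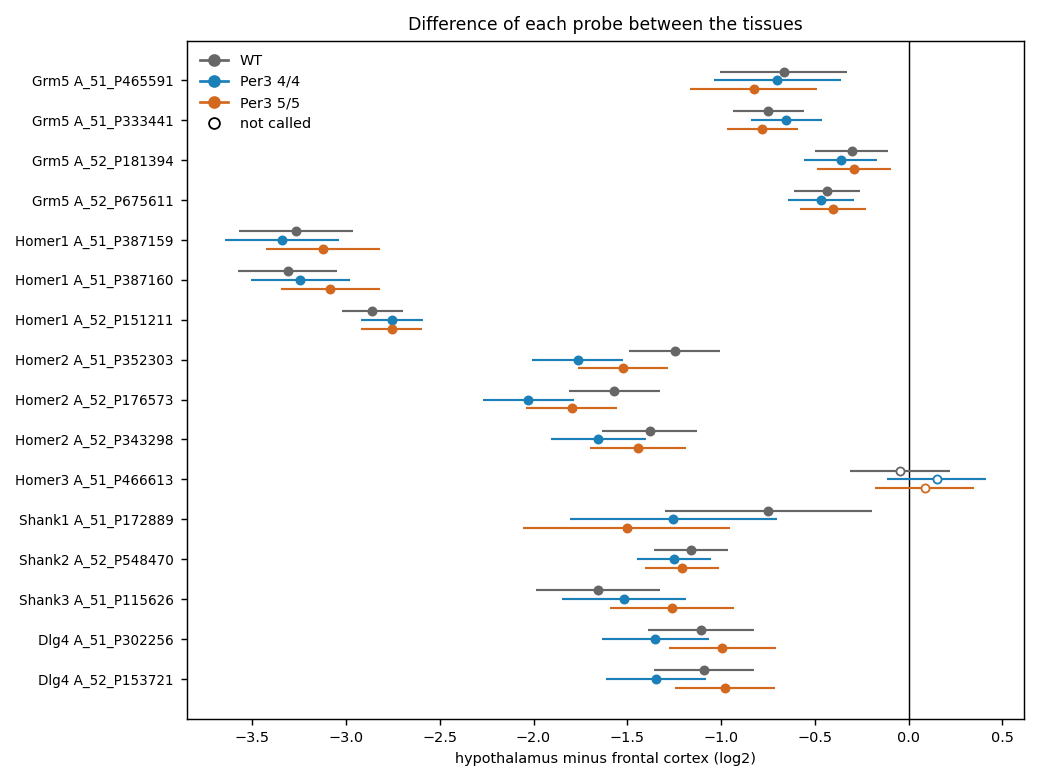
Difference between hypothalamus and frontal cortex for each of the 16 probes (x axis, log2), by genotype (colour), with the 95% confidence interval from limma as a line; filled points are called at an adjusted p under 0.05. The Homer1 probes stand near -3, all but Homer3 lie left of 0, and the Homer3 points lie at 0 within their intervals.

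**Figure D2:**
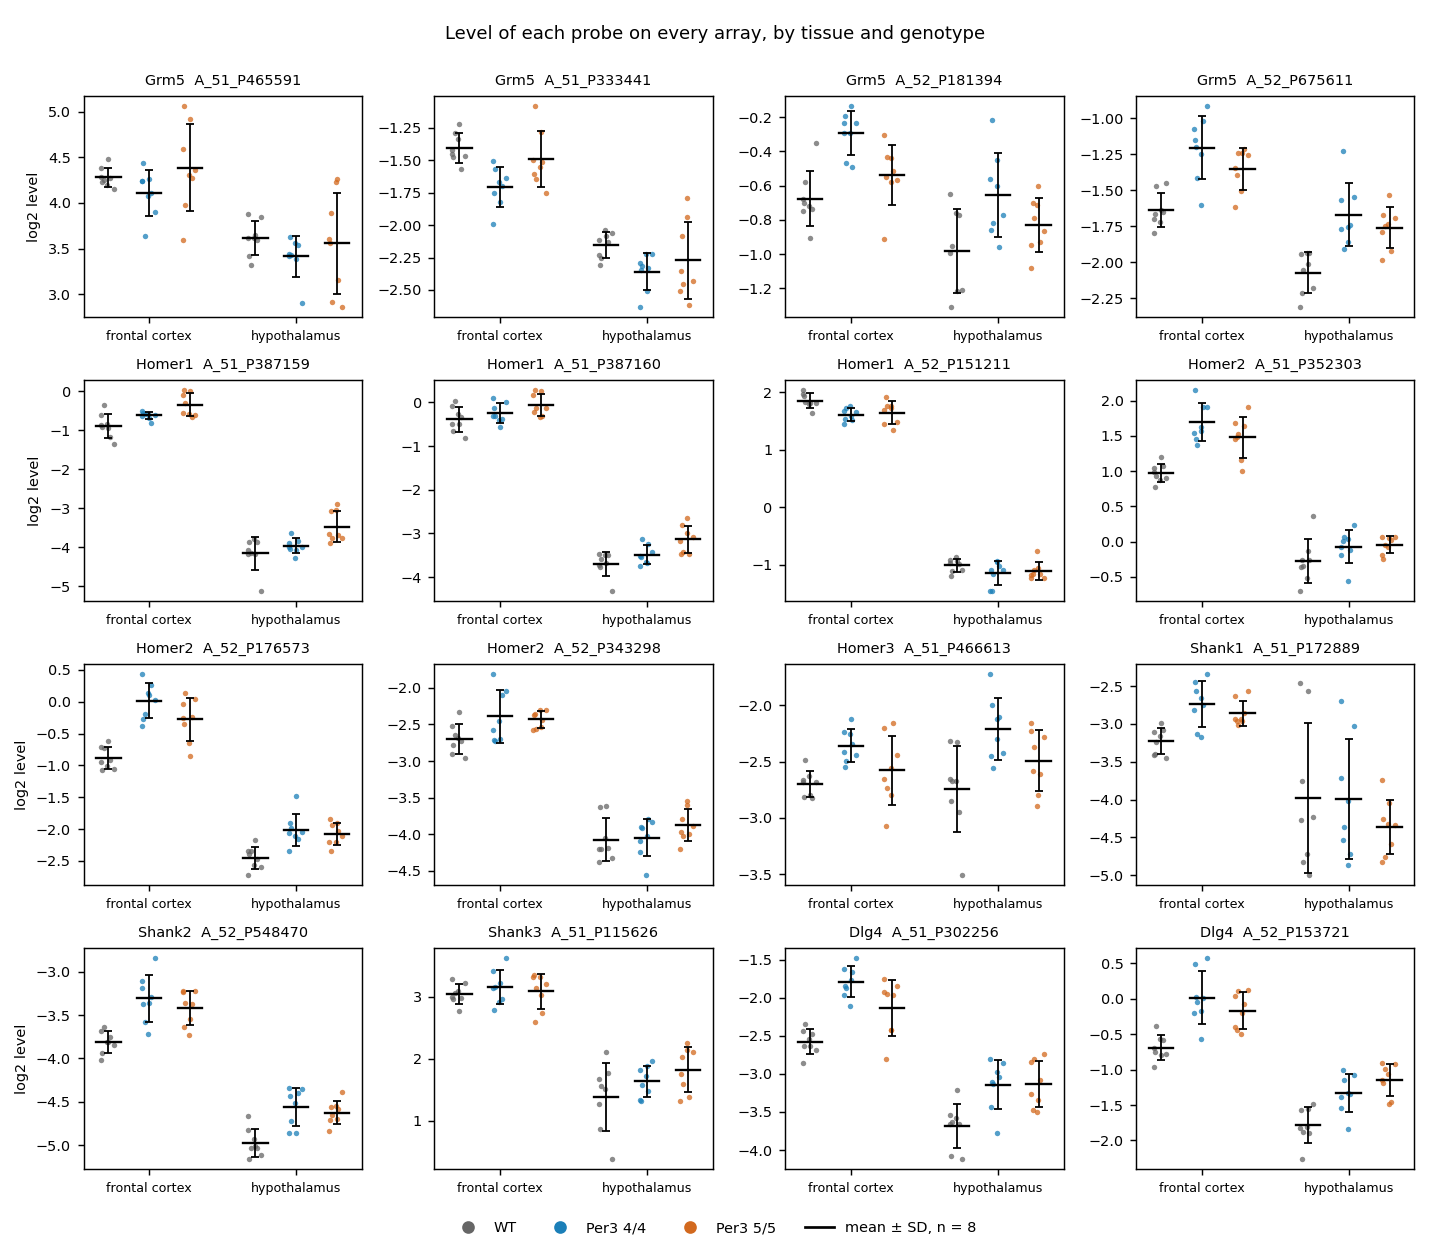
Level of each probe on each array (y axis, log2 relative to the 75th percentile of the array; the scale differs between panels) in 8 WT, 8 Per3 4/4 and 8 Per3 5/5 mice per tissue; bars are means and SD. By mean, the cortex group of each genotype lies above its hypothalamus group for all probes but Homer3, and the KI groups lie above WT for Dlg4, Homer2 and Shank2.

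The second comparison set the KI mice against WT within each tissue. Of 64 such differences (16 probes, 2 KI genotypes, 2 tissues) 33 were called by limma, of which 31 were higher and 2 lower in the KI mice, in 7 of the 8 genes. In cortex 11 of 16 probes were called in Per3 4/4 (9 higher, 2 lower), where 22.5% of all 29724 probes were called, and 8 of 16 in Per3 5/5 (8 higher), where 12.3% were. In hypothalamus 7 of 16 were called in Per3 4/4 and 7 in Per3 5/5, all higher, where 15.1% and 18.8% of all 30746 probes were called. Calls in the higher direction made up 13.4% and 8.44% of all probes in cortex, and 8.24% and 10.3% in hypothalamus, for Per3 4/4 and Per3 5/5. Calls in the lower direction made up 9.14% and 3.91% in cortex and 6.81% and 8.55% in hypothalamus, in the same order. The split of all calls depended on the scaling. The higher calls were 59.4% and 68.4% of all calls in cortex and 54.8% and 54.6% in hypothalamus, but 34.2%, 19.2%, 31.8% and 34.5% with each array centred on its median, and in Per3 5/5 cortex 47.0% with quantile normalization and 42.8% with normexp. The members' calls with median centring were 8 higher and 2 lower, 3 and 1, 5 and 0, and 4 and 0, and with normexp neither lower call in Per3 4/4 cortex remained. The median member difference was 0.36 in Per3 4/4 and 0.31 in Per3 5/5 cortex and 0.23 and 0.28 in hypothalamus, against 0.02, 0.06, 0.02 and 0.03 over all probes. Both KI genotypes were compared with the same WT arrays, so their values below are set side by side and are not independent of each other.

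Scan day moved with genotype. In a fit that blocked on scan day, 8 of the 16 probes stayed called in Per3 4/4 cortex, 2 in Per3 4/4 hypothalamus, 1 in Per3 5/5 cortex and 0 in Per3 5/5 hypothalamus. In that fit 2294, 229, 293 and 644 of all probes were called in the same order. All 11 were among the 33, and all 33 kept their sign. The members' medians with the block were 0.36, 0.26, 0.29 and 0.26, beside 0.03, 0.02, 0.05 and 0.02 over all probes. The count in Per3 5/5 cortex was 4 with median centring, quantile normalization or normexp (3454, 3145 and 1824 of all probes), and 5 without Per3 5/5 replicate 3, 4 or 5 or WT replicate 8. In Per3 4/4 hypothalamus it was 4 with normexp (3267 of all probes) and 4 without Per3 4/4 replicate 1, and in Per3 5/5 hypothalamus 4 with median centring (5434 of all probes). The part of scan day and of array brightness in these calls was not tested further.

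Dlg4, which encodes the main scaffold of glutamate receptors, was higher in both KI genotypes and both tissues at both probes. In cortex A_51_P302256 ran from -2.85 through -2.59 to -2.34 in WT, from -2.11 through -1.81 to -1.48 in Per3 4/4, and from -2.81 through -1.96 to -1.76 in Per3 5/5. All 8 Per3 4/4 mice lay above the highest WT mouse, as did 5 of 8 Per3 5/5 mice. The differences were 0.79 ± 0.13 (limma adjusted p 0.00115) and 0.44 ± 0.13 (adjusted p 0.0297).

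In hypothalamus the same Dlg4 probe was higher by 0.54 ± 0.15 in Per3 4/4 and 0.55 ± 0.15 in Per3 5/5. The second probe, A_52_P153721, was higher by 0.70 ± 0.14 and 0.52 ± 0.14 in cortex and by 0.45 ± 0.12 and 0.64 ± 0.12 in hypothalamus. Its ranges overlapped with WT in every comparison, with 5 to 7 of 8 KI mice above the highest WT mouse. With scan day as a block both probes stayed called in Per3 4/4 cortex (0.66 and 0.62, limma adjusted p 0.0109 and 0.0227). In Per3 4/4 hypothalamus neither was called (0.36 and 0.39, adjusted p 0.191 and 0.145), and in Per3 5/5 the 4 values ran from 0.32 to 0.55 and none was called.

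Homer2 held the largest difference from WT of the set. In cortex A_52_P176573 ran from -1.08 through -0.93 to -0.61 in WT, from -0.38 through 0.07 to 0.44 in Per3 4/4 and from -0.84 through -0.25 to 0.14 in Per3 5/5. The Per3 4/4 and WT mice did not overlap, and 6 of 8 Per3 5/5 mice lay above WT. The differences were 0.90 ± 0.13 (1.87-fold, limma adjusted p 0.00093) and 0.61 ± 0.13 (1.52-fold, adjusted p 0.00861), and in hypothalamus 0.44 ± 0.10 and 0.38 ± 0.10.

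This Homer2 probe was the one member called in 3 of the 4 comparisons with scan day as a block, at 0.86 in Per3 4/4 cortex, 0.50 in Per3 4/4 hypothalamus and 0.67 in Per3 5/5 cortex. On scan day 2 alone (3 Per3 4/4 and 5 WT mice) it was also the only member called, in cortex, where 164 of all 29724 probes were called. A_51_P352303 was higher in cortex by 0.72 ± 0.12 in Per3 4/4, where all 8 mice lay above WT, and by 0.51 ± 0.12 in Per3 5/5. With the block its cortical call remained in Per3 4/4 (0.66, limma adjusted p 0.00997) and not in Per3 5/5 (0.51, 0.0633). In hypothalamus its differences of 0.20 and 0.23 were not called. The dimmest Homer2 probe, A_52_P343298, was called in no comparison with WT (differences from 0.03 to 0.30).

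Homer3 was called in Per3 4/4 mice, by 0.34 ± 0.10 in cortex (limma adjusted p 0.0237) and 0.53 ± 0.15 in hypothalamus (adjusted p 0.0253). In Per3 5/5 the differences were 0.12 and 0.25 and were not called. In cortex it ran from -2.83 through -2.68 to -2.48 in WT, -2.55 through -2.38 to -2.13 in Per3 4/4, and -3.07 through -2.60 to -2.16 in Per3 5/5. The Per3 5/5 mice spanned the whole WT range, and the difference between the KI genotypes was -0.22 (95% interval -0.43 to -0.00221, limma adjusted p 0.316). Neither Homer3 call remained with scan day as a block (0.34 and 0.45, limma adjusted p 0.0631 and 0.16).

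At Homer1 the differences of the accessions had opposite signs. In hypothalamus A_51_P387160 was higher in Per3 5/5 by 0.56 ± 0.13 (limma adjusted p 0.00718), with 7 of 8 mice above every WT mouse, and by 0.21 ± 0.13 in Per3 4/4, which was not called. A_51_P387159 was higher in Per3 5/5 in both tissues, by 0.54 ± 0.12 in cortex and 0.68 ± 0.17 in hypothalamus. A_52_P151211 was lower in Per3 4/4 cortex by 0.24, a difference of -0.24 ± 0.08, with 4 of 8 mice below every WT mouse, and its other 3 differences were -0.21, -0.14 and -0.11. A_51_P387160 in Per3 5/5 cortex was at 0.34 ± 0.13 and not called (adjusted p 0.0766). None of the 4 Homer1 calls remained with scan day as a block (limma adjusted p 0.0844 for A_51_P387160, 0.0586 and 0.101 for A_51_P387159 in cortex and hypothalamus, and 0.122 for A_52_P151211), and A_52_P151211 in Per3 5/5 hypothalamus was then at -0.01.

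**Figure D3:**
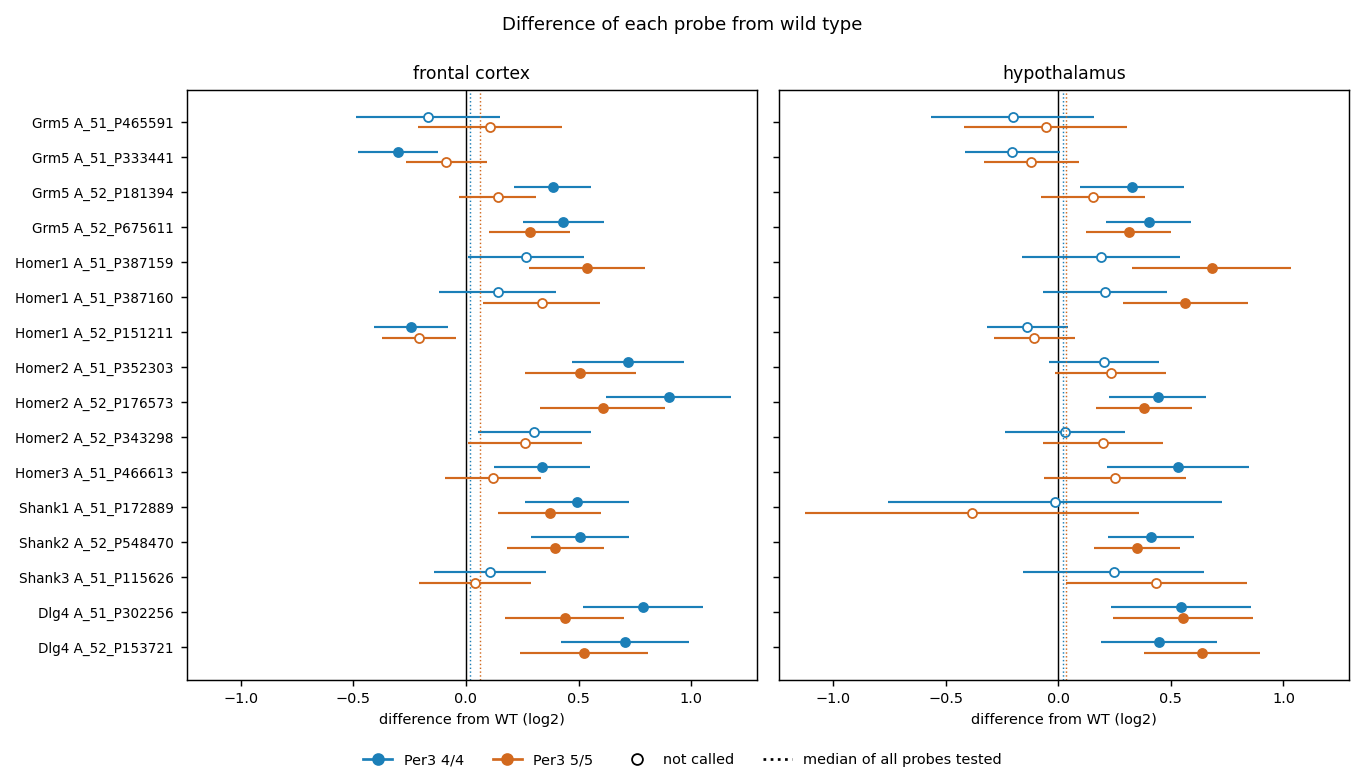
Difference of each probe from WT (x axis, log2) in frontal cortex and hypothalamus for Per3 4/4 and Per3 5/5, with 95% confidence intervals from limma; filled points are called and dotted lines mark the median of all probes tested. Dlg4, Shank2 and Homer2 A_52_P176573 are filled in all 4 comparisons, and the probes of Homer1 and of Grm5 fall on both sides of 0.

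The unequal change at Homer1 was measured within each array, as the mean level of the NM_011982 pair minus the level of A_52_P151211, averaged over both tissues of a mouse. A common scaling factor of an array cancels in this index, its own sign has no meaning because probes differ in binding strength, and only its differences between groups are read. The index ran from -3.27 through -2.67 to -2.38 in WT, from -2.64 through -2.27 to -2.11 in Per3 4/4, and from -2.25 through -2.08 to -1.66 in Per3 5/5. All 8 Per3 5/5 mice and 6 of 8 Per3 4/4 mice lay above the highest WT mouse.

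The index was higher than in WT by 0.69 in Per3 5/5 (exact permutation test, two-sided, p 0.000155, the smallest that 8 against 8 mice can give; adjusted over the 3 comparisons 0.000466) and by 0.39 in Per3 4/4 (exact p 0.00249, adjusted 0.00373). Per3 5/5 was higher than Per3 4/4 by 0.30 (exact p 0.00979, adjusted 0.00979), with 4 of 8 mice above every Per3 4/4 mouse. That the Homer1 probes do not move alike was known when the index was chosen, so it describes a known difference and is no independent support for it.

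The difference between the KI genotypes at the index was the less stable. It was 0.20 in cortex alone (exact adjusted p 0.0682) and 0.39 in hypothalamus alone (0.0282), and 0.09 (0.408) with normexp and its offset. Within scan day 1, on 4 mice of each, it was 0.18 (exact p 0.0571, adjusted 0.0857). Against WT the index differences with normexp were 0.43 in Per3 5/5 and 0.33 in Per3 4/4 (exact permutation, adjusted p 0.00676 for both), below the 0.69 and 0.39 of the main scaling. Against WT the index kept a difference of 0.71 on scan day 3 in Per3 5/5 (4 against 3 mice, exact p 0.0571, adjusted 0.0857) and 0.27 on scan day 2 in Per3 4/4 (3 against 5 mice, exact p 0.321). With scan day as a stratum of the permutation the differences were 0.17, 0.71 and 0.36 (Per3 5/5 minus Per3 4/4, Per3 5/5 minus WT and Per3 4/4 minus WT; adjusted p 0.111, 0.0857 and 0.1). Per3 5/5 and WT shared scan day 3 only, where every Per3 5/5 mouse lay above every WT mouse and the exact p was the smallest that 4 against 3 mice can give (0.0571 on that day, by doubling 1 tail, and 0.0286 in the stratified test, by the absolute difference). The 0.0571 could not pass on any data, so the missing call there says nothing of the difference, which was as large as over all mice.

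**Figure D4:**
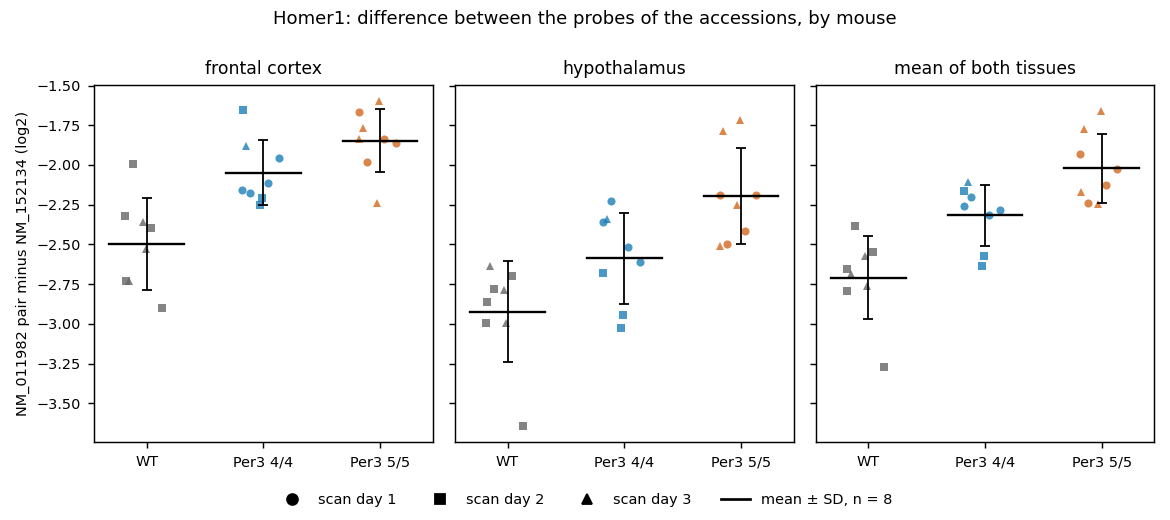
Homer1 index (y axis, log2: mean of the NM_011982 probes minus the NM_152134 probe) for each of 8 mice per genotype, in each tissue and as the mean of both, with means and SD; symbols give the scan day. The mean is highest in Per3 5/5 and lowest in WT in every panel, and scan day 1 holds no WT mouse.

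The index also differed between the tissues. It was lower in hypothalamus than in the cortex of the same mouse in 7 of 8 WT, 8 of 8 Per3 4/4 and 8 of 8 Per3 5/5 mice, by mean differences of -0.43 ± 0.31, -0.54 ± 0.32 and -0.35 ± 0.26 (SD; exact paired permutation p 0.0156, 0.00781 and 0.00781, adjusted 0.0156, 0.0117 and 0.0117). With normexp and its offset of 50 the direction turned, to 0.29, 0.12 and 0.15 with no call (adjusted p 0.0703, 0.32 and 0.129). An added offset raises dim log2 values most, and so by itself moves the index upward in hypothalamus. The share of the offset in the turn was not tested. The NM_011982 probes lay near the lower end of the scale in hypothalamus, and the direction between tissues is therefore not settled by these arrays.

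Grm5 showed a like division by accession, seen after the values were known and given with no test of its own. The NM_001081414 probes were higher in Per3 4/4, A_52_P181394 by 0.39 ± 0.08 and A_52_P675611 by 0.43 ± 0.09 in cortex, and by 0.33 ± 0.11 and 0.40 ± 0.09 in hypothalamus. All 8 Per3 4/4 hypothalami lay above every WT hypothalamus at A_52_P675611. In Per3 5/5 that probe was called too (0.28 ± 0.09 and 0.31 ± 0.09), and A_52_P181394 was not (0.14 and 0.15).

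Of the NM_001143834 probes, A_51_P333441 was lower in Per3 4/4 cortex by a difference of -0.30 ± 0.09 (limma adjusted p 0.0164), where 7 of 8 mice lay below every WT mouse. Its range was -1.57 through -1.44 to -1.22 in WT and -2.0 through -1.68 to -1.51 in Per3 4/4. The brightest Grm5 probe, A_51_P465591, was called in no comparison with WT (differences from -0.20 to 0.11). With scan day as a block the division was less clear: A_51_P465591 was then above WT in all 4 comparisons (0.05 to 0.27, none called), and the lower value of A_51_P333441 was no longer called (-0.24, limma adjusted p 0.107). Of the NM_001081414 calls, both in Per3 4/4 cortex and that of A_52_P675611 in Per3 4/4 hypothalamus remained, while A_52_P181394 in Per3 4/4 hypothalamus (adjusted p 0.0877) and A_52_P675611 in both tissues of Per3 5/5 (0.235 and 0.117) lost theirs. The mean level of the NM_001081414 pair minus that of the NM_001143834 pair, averaged over both tissues, was -2.43 ± 0.12 in WT, -2.17 ± 0.29 in Per3 5/5 and -1.82 ± 0.16 in Per3 4/4 (SD, n = 8 mice each). No Per3 4/4 mouse overlapped with WT. This Grm5 measure moved with scan day: in Per3 5/5 it averaged -1.93 over the 4 mice of day 1 and -2.40 over the 4 of day 3, where the 3 WT mice averaged -2.49. The difference of Per3 5/5 from WT was 0.26 over all mice and 0.0969 on day 3, and that of Per3 5/5 from Per3 4/4 was -0.34 over all mice and -0.15 on day 1 (4 mice of each). Per3 4/4 was above WT by 0.61 over all mice and by 0.48 on day 2 (3 against 5 mice).

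Among the Shank genes, Shank2 was higher in all 4 comparisons. In hypothalamus it ran from -5.16 through -5.02 to -4.67 in WT, from -4.86 through -4.47 to -4.34 in Per3 4/4 and from -4.84 through -4.62 to -4.39 in Per3 5/5, with 5 of 8 mice of each KI genotype above WT. The differences were 0.51 ± 0.10 and 0.40 ± 0.10 in cortex and 0.41 ± 0.09 and 0.35 ± 0.09 in hypothalamus, for Per3 4/4 and Per3 5/5. With scan day as a block it stayed called in Per3 4/4 cortex (0.41, limma adjusted p 0.0289) and in none of the other 3 comparisons (0.26 to 0.35).

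Shank1 was higher in cortex, by 0.49 ± 0.11 in Per3 4/4 and 0.37 ± 0.11 in Per3 5/5, of which the first stayed called with scan day as a block (limma adjusted p 0.0253) and the second did not (0.157). In hypothalamus its differences of -0.01 and -0.38 were not called, with intervals from -0.76 to 0.73 and from -1.13 to 0.36. The first interval holds the cortical difference of 0.49, and the second ends just below that of 0.37. Shank3, the brightest scaffold probe, was called in no comparison with WT (differences from 0.04 to 0.44). In WT cortex it ran from 2.77 through 3.03 to 3.28, and both KI ranges (2.79 to 3.63 and 2.60 to 3.36) overlapped with it.

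Between the KI genotypes no probe was called, in a comparison where 0% of all probes were called in either tissue. The study also accepted probes by a rank product analysis, which was not run here. By its criteria it reported transcripts that differed between the KI genotypes in both tissues, with Homer1 probes higher in Per3 5/5 hypothalamus. At an unadjusted p under 0.05 there were 6 of the 16 probes in cortex and 2 in hypothalamus, and over all probes 4657 and 4984. The smallest adjusted p of a member was 0.235, at Homer1 A_51_P387159 in hypothalamus, where Per3 5/5 was higher by 0.49 (95% interval 0.14 to 0.84). In cortex Dlg4 A_51_P302256 was at -0.35 (-0.61 to -0.08) and Homer2 A_52_P176573 at -0.29 (-0.57 to -0.01), Per3 5/5 minus Per3 4/4. The median member difference was -0.12 in cortex and 0.03 in hypothalamus, against 0.02 and 0.00 over all probes.

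Whether the genotype differences themselves differed between the tissues was tested as an interaction. None of the 16 probes was called in any of the 3 contrasts by limma (smallest adjusted p 1.0), where 0%, 0.016% and 0.0032% of all probes were called. At an unadjusted p under 0.05 there were 2, both of Homer2 in Per3 4/4 against WT (-0.52 ± 0.17 at A_51_P352303 and -0.46 ± 0.17 at A_52_P176573, hypothalamus minus cortex). Of all 31237 probes 742 were under 0.05 in that contrast. The number was 516 for Per3 5/5 against Per3 4/4 and 997 for Per3 5/5 against WT. The Homer2 calls in cortex and their absence in hypothalamus at A_51_P352303 are therefore not shown to differ.

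Ordered by mean over the 6 groups, Per3 4/4 cortex was highest for 10 of the 16 probes, namely those of Homer2, Shank1, Shank2, Shank3 and Dlg4 and the NM_001081414 probes of Grm5. Per3 5/5 cortex followed it in each of the 10, by less than the larger SD of both groups except at Grm5 A_52_P181394. For the NM_011982 pair of Homer1 the order was Per3 5/5, Per3 4/4 and WT in both tissues, with neighbours in cortex closer than their spread. For A_52_P151211 WT was highest in both tissues.

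Genes that work with the members were read from a list of 49 postsynaptic partners, of which 44 were tested, each by its brightest probe. Against WT, 3 were higher and 7 lower in Per3 4/4 cortex, 2 and 10 in Per3 4/4 hypothalamus, 2 and 1 in Per3 5/5 cortex, and 4 and 3 in Per3 5/5 hypothalamus. The partners called were thus 22.7%, 27.3%, 6.82% and 15.9% of those tested, beside 22.5%, 15.1%, 12.3% and 18.8% of all probes, so that in 3 of the 4 comparisons their share was near or below that of all probes. Their medians were -0.06, -0.11, 0.05 and 0.04. None was called between the KI genotypes. With scan day as a block 2 were higher and 2 lower in Per3 4/4 cortex and none elsewhere.

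Among the higher partners, Trpc1, a cation channel gated downstream of group I receptors, was called in all 4 comparisons (0.49 ± 0.10 and 0.44 ± 0.11 in Per3 4/4 cortex and hypothalamus, 0.48 ± 0.10 and 0.44 ± 0.11 in Per3 5/5). Ncdn, whose product neurochondrin binds mGluR5, was higher by 0.41 ± 0.12 in Per3 4/4 cortex and by 0.46 ± 0.13 and 0.55 ± 0.13 in the hypothalamus of Per3 4/4 and Per3 5/5. The phospholipase gene Plcb3 was higher in cortex by 0.58 ± 0.13 and 0.41 ± 0.13. Dlg2, a relative of Dlg4, was higher in Per3 5/5 hypothalamus by 0.39 ± 0.11.

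Among the lower partners in Per3 4/4, Plk2, an activity-induced kinase of dendritic spines, was at -0.60 ± 0.18 in cortex and -0.59 ± 0.17 in hypothalamus. The phospholipase gene Plcb1, abundant in forebrain neurons, was at -0.52 ± 0.11 and the NMDA receptor subunit gene Grin2a at -0.52 ± 0.14 in Per3 4/4 cortex. Itpr1, the inositol trisphosphate receptor gene, was at -0.49 ± 0.13 in the hypothalamus of Per3 4/4 and -0.41 ± 0.13 in that of Per3 5/5, and the immediate early gene Egr1 at -0.49 ± 0.13 in Per3 4/4 hypothalamus. In Per3 5/5 the other lower genes were Abi1 in cortex (-0.29 ± 0.08), and Arhgef7 (-0.39 ± 0.10) and Dlg3 (-0.34 ± 0.12) in hypothalamus. The called partners did not share 1 direction.

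None of the 6 plasticity genes often induced together with Homer1a (Arc, Bdnf, Nptx2, Plk2, Egr1 and Fos) was called higher in a KI genotype. In Per3 4/4, 1 was lower in cortex and 3 in hypothalamus, and in Per3 5/5 none was called, with medians of -0.11 in both tissues. The pan-neuronal markers gave 1 higher call of 6 in Per3 5/5 cortex, 2 in Per3 5/5 hypothalamus and none in Per3 4/4. In hypothalamus, of 5 oligodendrocyte markers 4 were called higher in Per3 4/4 (median 0.46) and 1 in Per3 5/5 (median 0.27, 4 of 5 at an unadjusted p under 0.05). Of 5 astrocyte markers there 1 was called higher in Per3 4/4 (median 0.27, 5 of 5 at an unadjusted p under 0.05), and 2 were higher and 1 lower in Per3 5/5 (median 0.27). Striatal markers were higher in 2 of 9 in each KI hypothalamus (medians 0.14 and 0.17). None of these glial and striatal markers was called in cortex, where the striatal medians were -0.49 and -0.46. With scan day as a block the hypothalamic calls were 1 oligodendrocyte marker higher in Per3 4/4 and 1 astrocyte marker higher in Per3 5/5. No striatal or pan-neuronal marker was then called. Other marker groups held calls too, such as 2 of 5 choroid plexus markers lower in Per3 5/5 hypothalamus and 2 of 9 hypothalamic markers higher in Per3 5/5 cortex. The part of the markers in the member differences was not tested.

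Probes with the most similar residual pattern to Homer1 were sought over the 48 arrays after removal of the mean of each tissue, genotype and scan day. The nearest to A_51_P387160 were Fbxw7 (Pearson r 0.87, Spearman rho 0.84), Exoc6b (0.85, 0.82), Smarcc1 (0.85, 0.81), Etnk1 (0.85, 0.84) and Tubgcp6 (0.85, 0.80). The nearest to A_52_P151211 were Wac (0.81, 0.76), Dgke (0.77, 0.80), Plppr5 (0.77, 0.71), Ercc6 (0.77, 0.75) and Myt1l (0.76, 0.75). The r between A_51_P387160 and its partner A_51_P387159 was 0.82, and with A_52_P151211 of the same gene it was 0.23. These values describe arrays that share slides and brightness, and carry no test.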

How the data were processed

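RNA was hybridised to 1-colour (Cy3) Agilent mouse arrays. The authors deposited Feature Extraction 10.7.1.1 output, whose processed intensity is background-subtracted and detrended, with the raw spot and background intensities and quality calls of 0 or 1 beside it, and a series table of log2 values shifted to the 75th percentile, which served as an alternative. From the deposited intensities, log2 values minus the log2 75th percentile of each array were computed, outlier spots (48 to 172 per array) left out and spots of a probe averaged. Probes that passed the scanner's background call on 6 or more of the 8 arrays in any group were tested with limma 3.58.1 (R 4.3.3; two-sided, Benjamini-Hochberg, called at adjusted p under 0.05), after tests on simulated data. Single values used exact permutation tests (scipy 1.17.1). The number of arrays limits the precision. Array annotation was mm9, so only symbols were taken from the RefSeq table (GRCm38.p6). Members, gene lists and tests were chosen with earlier results of these data known. The named partners were the 3 called genes with the largest difference per direction and comparison, and likeness named the top 5 probes. Cortex and hypothalamus of 1 mouse were paired by mouse number (r of their deviations 0.11 to 0.69 in all 24 mice). Per the study's methods mice were housed singly and kept awake in batches of 8 that mixed genotypes. Which mice shared a batch is not given in the sources used here, so it could not be a term of any fit.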

Additional observations from a re-analysis of the deposited data

Results flagged for a closer look

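Of 102 groups of 8 values examined (16 probes and the Homer1 index, in 6 groups each), 6 held 1 array that stood apart by Dixon's criterion, where chance gives about 1 in 20. In WT hypothalamus, replicate 3 was lowest at both NM_011982 probes of Homer1, at -5.13 for A_51_P387159 (next -4.18) and -4.32 for A_51_P387160 (next -3.78), and so also at the Homer1 index (-3.64, next -2.99). The other such arrays were Per3 5/5 hypothalamus replicate 6, highest at Homer1 A_52_P151211 (-0.76, next -1.06), Per3 4/4 hypothalamus replicate 3, lowest at Grm5 A_51_P465591 (2.90, next 3.39), and Per3 5/5 cortex replicate 1, lowest at Grm5 A_52_P181394 (-0.91, next -0.58). Without WT replicate 3 the Homer1 index was still higher than in WT by 0.61 in Per3 5/5 and 0.31 in Per3 4/4 (exact permutation, adjusted p 0.000932 and 0.00746).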

How the results depend on the processing

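Against WT, the number of called probes (main 8 in Per3 5/5 cortex, 11 in Per3 4/4 cortex, 7 and 7 in hypothalamus) moved by over 1.5 times under some settings. In Per3 5/5 cortex it was 4 with median centring, 4 with quantile normalization, 4 with normexp, 1 when blocked by scan day, 0 with a fixed slide term and 0 on 1 scan day alone. Of all 29724 probes 3454, 3145, 1824, 293, 0 and 1 were called there, in the same order. In Per3 4/4 cortex the member count was 0 with slide as a fixed block and 1 on 1 scan day alone (0 and 164 of all probes). In Per3 5/5 hypothalamus it was 4 with median centring (5434 of all probes). There it was 0 with scan day, with slide as a fixed block and on 1 scan day alone (644, 0 and 1 of all probes). In Per3 4/4 hypothalamus it was 4 with normexp and 2 with scan day as a block (3267 and 229 of all probes). There it was 0 with slide as a fixed block and on 1 scan day alone (0 and 5 of all probes). With slide as a fixed block no probe at all was called against WT, and Shank2 in Per3 5/5 hypothalamus turned to -0.00947. WT shared a slide with KI mice only on slides 4 and 6, with Per3 4/4, and no slide held both WT and Per3 5/5. That fit had little to compare within a slide, so its missing calls say nothing of the members. Single days hold fewer mice; the other causes were not tested. Median centring moved the median of all probes in Per3 5/5 cortex from 0.06 to -0.05, turned the split of all calls to 663 higher and 2791 lower there, 1872 and 3595 in Per3 4/4 cortex, 1873 and 3561 in Per3 5/5 hypothalamus and 1317 and 2830 in Per3 4/4 hypothalamus, and in Per3 5/5 cortex called Homer1 A_52_P151211 lower. The study's criteria were an ANOVA and t-test and/or a rank product analysis, of which only the t-test was run here. The t-test called 7, 11, 7 and 7 members in Per3 5/5 cortex, Per3 4/4 cortex, Per3 5/5 hypothalamus and Per3 4/4 hypothalamus. Over all probes it called 3085, 8846, 4052 and 6313.

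With 1 mouse left out the counts ranged from 5 to 9 in Per3 5/5 cortex (5 without Per3 5/5 replicate 3, 4 or 5 or WT replicate 8), from 10 to 12 in Per3 4/4 cortex, from 7 to 8 in Per3 5/5 hypothalamus and from 4 to 7 in Per3 4/4 hypothalamus (4 without Per3 4/4 replicate 1). Between tissues they ranged from 14 to 15.

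The difference of the KI genotypes in the Homer1 index lost its call in cortex alone (0.20), with normexp (0.094), with scan day as a stratum (0.17) and on 1 scan day (0.18). Per3 4/4 against WT was not called with scan day as a stratum (0.36) or on 1 scan day (0.27). Per3 5/5 against WT was at 0.71 in both, without a call after adjustment. On the single shared day the exact p of 0.0571 was the smallest that 4 against 3 mice can give and could not pass, so it says nothing about stability. With the stratum the exact p was 0.0286, and 0.0857 after adjustment over the comparisons. With 1 mouse left out the index difference ranged from 0.24 to 0.33, from 0.61 to 0.73 and from 0.31 to 0.44. Between tissues, alternatives chosen after seeing the data turned it with normexp and its offset (0.15 for Per3 5/5, 0.29 for WT and 0.12 for Per3 4/4). With 1 mouse left out the tissue difference ranged from -0.39 to -0.30, -0.50 to -0.38 and -0.61 to -0.47, in the same order.

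Mice of different genotypes with the same replicate number were not treated as pairs. Some of them shared a slide and a scan day, as replicates 1 to 4 of Per3 5/5 and Per3 4/4 did. At most 6 of 8 same-numbered pairs correlated over 0.1. The replicate block gave 8, 11, 7 and 6 member calls in the same order, where 3670, 6898, 6408 and 5358 of all probes were called. Pairing the tissues of a mouse as a block gave 15 member calls in each genotype. There 18283, 18427 and 18585 of all 31237 probes were called in Per3 5/5, Per3 4/4 and WT. Pairing changed no other count of member calls. Over all probes the replicate block called 2 between the KI genotypes in hypothalamus, beside 0 in the main fit.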
